A study of Mus musculus with 2 samples.

Results

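Mast cell-like barcodes were the droplets of 2 single cell RNA-seq libraries whose RNA held the granule proteases of mast cells. They were selected on measured values: a barcode needed 1000 or more unique molecular identifiers (UMIs, each standing for 1 captured transcript), under 10% mitochondrial UMIs, 10 or more UMIs of Cma1, Tpsb2 and Mcpt4 together per 10,000 (the mast score), and more UMIs of these 3 genes than of the basophil proteases Prss34 and Mcpt8. By this rule 1260 of 13369 barcodes were members, 852 of 6658 in miR-142 WT CML and 408 of 6711 in miR-142 KO CML. The levels of Cma1, Tpsb2 and Mcpt4 below therefore describe the choice and carry no test. The same holds for every other transcript set against the remaining barcodes, since it was read from the same barcodes.

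The libraries were made to ask how loss of the microRNA miR-142 changes the leukemic stem cell compartment in chronic myeloid leukemia (CML). Bone marrow cells were sorted as LSK cells, that is lineage-negative cells with Sca-1 (the product of Ly6a) and c-Kit on their surface, from mice 8 to 10 weeks old. The mice of both groups carried BCR-ABL on a B6 background, as an SCLtTA/BCR-ABL transgene that the SCL promoter drives once tetracycline is withdrawn, and cells were taken 2 weeks after that withdrawal. The groups differed in miR-142, which was intact in miR-142 WT CML and knocked out in miR-142 KO CML (miR-142-/-). There was 1 library per group, the sources used here do not give the number of mice behind either, and so no test between the groups was possible. Every difference below is between 2 libraries, and 95% intervals (exact Clopper-Pearson for shares, exact conditional binomial for ratios) take in the error of counting alone and leave out how mice vary.

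Mast cells are tissue-resident cells that arise from bone marrow progenitors under stem cell factor, the ligand of c-Kit, and they fill with granules of serine proteases, histamine and heparin. The proteases fall into chymases (Cma1, Mcpt1, Mcpt2, Mcpt4), tryptases (Tpsb2, Tpsab1, Tpsg1) and the carboxypeptidase Cpa3. Crosslinking of the IgE receptor FceRI, or stimulation of Mrgprb2, releases these granules, and mature mast cells are rare in healthy marrow. Basophils share FceRI and Cpa3 with them and are told apart by Mcpt8 and Prss34 and by little c-Kit.

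The sequences that bear most directly on these cells are the 250 bases upstream of 4 of the genes that define them, shown because GATA2, a transcription factor that mast cells need, binds the letters GATAA. Sequences are from RefSeq (GRCm38.p6), run 5′ to 3′ toward the start of the gene, and have GATAA or its reverse complement TTATC in capitals. Of the 5 genes looked up, 4 had an entry, and Tpsb2 is named only.
Cma1 promoter, chr14:55944676-55944925, minus strand: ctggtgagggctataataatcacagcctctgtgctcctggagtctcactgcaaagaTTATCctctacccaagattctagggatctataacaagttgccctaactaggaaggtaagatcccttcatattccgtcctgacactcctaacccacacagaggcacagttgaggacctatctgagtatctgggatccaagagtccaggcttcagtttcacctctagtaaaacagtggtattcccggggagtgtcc
Mcpt4 promoter, chr14:56062311-56062560, minus strand: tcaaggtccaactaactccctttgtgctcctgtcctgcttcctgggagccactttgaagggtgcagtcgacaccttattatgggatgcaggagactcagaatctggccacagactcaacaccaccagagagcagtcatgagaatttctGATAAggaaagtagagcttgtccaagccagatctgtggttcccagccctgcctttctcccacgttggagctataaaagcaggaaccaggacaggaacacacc
Cpa3 promoter, chr3:20242182-20242431, minus strand: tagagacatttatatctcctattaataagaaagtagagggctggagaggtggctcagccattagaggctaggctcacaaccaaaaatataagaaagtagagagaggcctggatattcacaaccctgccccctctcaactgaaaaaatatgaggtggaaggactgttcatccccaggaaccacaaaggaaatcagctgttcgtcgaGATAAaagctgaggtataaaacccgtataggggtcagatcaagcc
Fcer1a promoter, chr1:173227230-173227479, minus strand: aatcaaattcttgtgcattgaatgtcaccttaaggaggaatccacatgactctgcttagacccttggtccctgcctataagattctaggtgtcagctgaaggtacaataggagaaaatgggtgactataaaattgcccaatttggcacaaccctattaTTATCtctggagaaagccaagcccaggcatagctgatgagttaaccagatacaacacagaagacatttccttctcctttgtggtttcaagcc
The letters stood 194 bases before the start of Cma1, 102 before Mcpt4, 45 before Cpa3 and 92 before Fcer1a, in reverse in Cma1 and Fcer1a. They occur in either direction in 7418 of 32851 such windows (22.6%), and a match is not a site.

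The deleted microRNA gives 2 mature strands from 1 hairpin, shown with the seed (bases 2 to 8) in capitals because these bases pair with targets.
miR-142a-5p, chr11:87756867-87756887, plus strand: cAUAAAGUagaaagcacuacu
miR-142a-3p, chr11:87756903-87756925, plus strand: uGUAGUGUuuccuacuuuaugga
The deletion was checked in the members on Mir142hg (ENSMUSG00000084796), the host transcript that spans 87755577 to 87757270 on chromosome 11 of GRCm38. Members of miR-142 WT CML held 28 UMIs of it under 8000 UMIs and 20 over (15.4 and 7.48 CPM, UMIs of a gene per 1000000 UMIs). Members of miR-142 KO CML held 0 in both classes, which bounds the KO over WT log2 ratio at -2.01 or lower under and -3.25 or lower over 8000 UMIs, at a floor of 3 counts per class. The next gene downstream, Tspoap1 (87760541 to 87785928), stood at 1.65 and 5.99 CPM in WT and at 386 and 396 CPM in KO members. Both libraries thus matched their labels within these cells.

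In the whole series the deposited matrices were unfiltered, with 1957898 barcodes in WT and 2055088 in KO, of which 7074 and 6846 had 1000 or more UMIs, where about 8000 cells per sample were captured. Of the barcodes that passed both limits, 8 occurred in both libraries, no member of the 1 library was a member of the other, and 3 members shared a barcode with a passing barcode of the other library. Barcodes that were neither mast nor basophil-like (the other barcodes below) had a median of 17749 UMIs in WT and 20136.5 UMIs in KO. Doublets were kept. The barcodes with the highest Scrublet scores were marked, up to a number fixed beforehand at 0.8% per 1000 barcodes. Marks fell on 6.87% of WT and 5.12% of KO members under 8000 UMIs and on 28.8% and 19.2% over 8000 UMIs. The other barcodes were marked at 4.61% and 4.84%, so deep members were marked more often.

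Members made up 12.8% of the passing barcodes in miR-142 WT CML (95% interval 12.003 to 13.623) and 6.08% in miR-142 KO CML (5.52 to 6.68). The excess in WT lay among shallow barcodes. Under 8000 UMIs, 713 of 1296 WT barcodes (55.0%, 52.3 to 57.7) and 215 of 1254 KO barcodes (17.1%, 15.1 to 19.3) were members. Over 8000 UMIs the order was the opposite, with 139 of 5362 in WT (2.59%, 2.18 to 3.05) and 193 of 5457 in KO (3.54%, 3.06 to 4.06). A total over all depths is therefore mainly a count of shallow barcodes in WT, where 83.7% of members (81.0 to 86.1) were under 8000 UMIs, and less so in KO, where 52.7% were (47.7 to 57.6).

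The members were shallow compared with the rest of their library. Their median was 2242.5 UMIs in WT and 7339 UMIs in KO. Within the class under 8000 UMIs it was 1864 in WT and 3382 in KO, so KO members of this class were the deeper ones. Over 8000 UMIs the medians were 15503 and 15488 and all but the same. Median genes detected per member followed depth, with 879 in WT and 1356 in KO under 8000 UMIs, and 3483 and 3509 over.

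**Figure D1:**
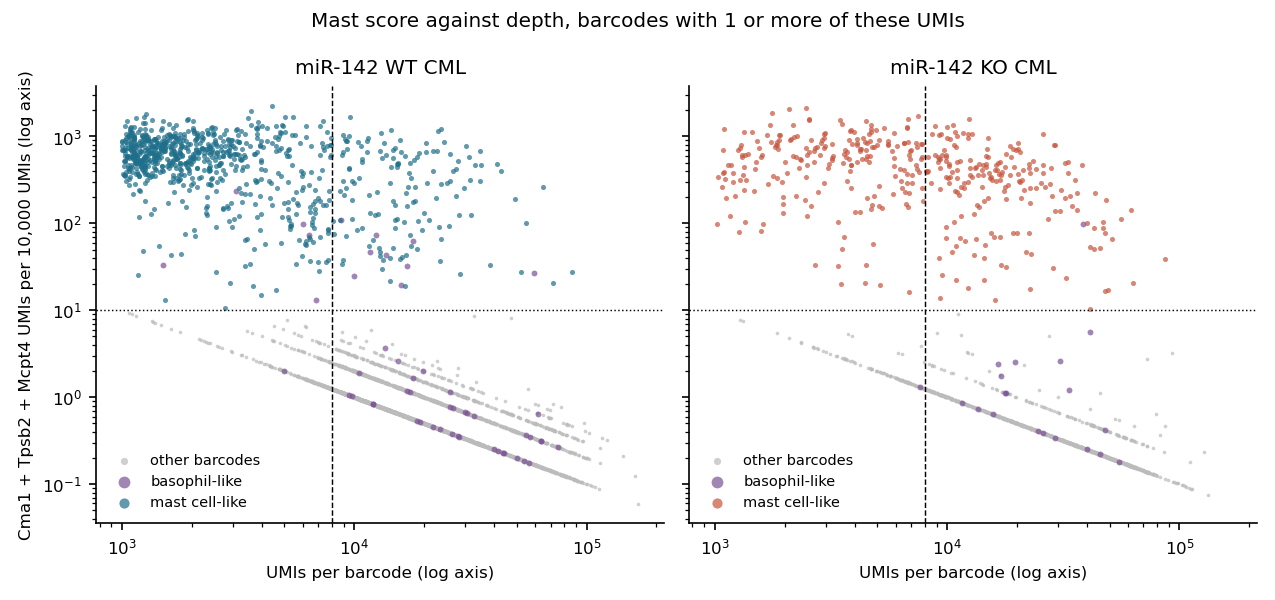
Mast score (UMIs of Cma1, Tpsb2 and Mcpt4 per 10,000, log axis) against UMIs per barcode (log axis) for each passing barcode with 1 or more of these UMIs; the dotted line is the score of 10 and the dashed line 8000 UMIs. Members form a cloud mostly over 100 that is densest near 1000 UMIs in WT and spread over all depths in KO, while other barcodes lie on lines that each stand for a whole number of UMIs.

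Signs of RNA quality moved with depth and library. Mitochondrial UMIs had a median share of 4.11% in WT and 2.93% in KO members under 8000 UMIs, and of 3.15% and 2.33% over, against 2.89% and 2.05% in the other barcodes. Ribosomal protein transcripts took 22.7% and 18.7% of UMIs in shallow members and 24.3% and 20.2% in deep ones, below the 30.8% and 30.3% of the other barcodes. Their part in the number of members was not tested.

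The rule left few barcodes near its threshold. Just outside, at a score of 8 to 10, were 5 WT barcodes and 1 KO barcode, and just inside, at 10 to 12, was 1 in each library: a WT barcode with 3 mast protease UMIs of 2789 and a KO barcode with 43 of 41041. Most members were far above, with a score of 400 or more in 583 WT and 219 KO members. The median score was 603 in WT and 582 in KO under 8000 UMIs and 289 and 331 over. Barcodes with 10 to 100 UMIs, taken as free RNA, had a pooled mast score of 14.1 in WT and 10.9 in KO, above the threshold of 10. The pooled score of other barcodes was 0.348 and 0.0872, and 5 WT and 8 KO members had a score of 12 to 20, near that of free RNA.

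The limits also cut through the population. A further 340 of 384 WT barcodes with 500 or more but under 1000 UMIs (88.5%, 84.9 to 91.5) met the mast rule, against 41 of 108 in KO (38.0%, 28.8 to 47.8). Another 45 WT and 4 KO barcodes met it but failed the mitochondrial limit. The study kept barcodes with over 300 UMIs and under 10% mitochondrial RNA, so its filter would have let the shallow members through. Among members, 51 in WT and 36 in KO also reached 10 basophil protease UMIs per 10,000.

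The label was compared with 17 markers of mast cells, of which 3 are genes of the rule and say nothing beyond it. The other 14 were detected in the members of each library and depth class. Their summed level was 21735 CPM in WT and 34534 CPM in KO members under 8000 UMIs and 30152 and 32668 CPM over. Basophil-like barcodes held 7706 and 6999.7 CPM of them and other barcodes 218 and 294 CPM. These genes were read from the same barcodes, so the values describe the members.

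Markers of other lineages differed from list to list. Eosinophil markers summed to 4.97 to 13.2 CPM, with 5 of 8 (Epx and Prg2 among them) at 0, and Cd3e, Col1a1, Lepr and Cdh5 were at 0 in all 4 member classes. Basophil markers summed to 5172 and 8868 CPM in shallow and 5157 and 6595 CPM in deep members of WT and KO, against 204 and 222 CPM in other barcodes, and 3 of these 14 genes (Fcer1a, Ms4a2 and Gata2) are on the mast list too. Without those 3 the sum was 1213, 1874, 1538 and 1528 CPM in the same order, against 22005 and 15412 CPM in basophil-like barcodes. That gap describes the choice, since the sum holds Prss34 and Mcpt8, genes of the rule. Without them as well it was 1037, 1643, 842 and 1031 CPM in the members. Basophil-like barcodes then held 2741 CPM in WT and 972 CPM in KO, and other barcodes 131 and 134 CPM. In KO both member classes were thus above the basophil-like barcodes. Innate lymphoid markers summed to 1604, 2066, 1611 and 1379.9 CPM, against 23.8 and 253 CPM in other barcodes. Most of this was Il1rl1, the interleukin 33 receptor that mast cells also carry, and the other 5 genes summed to 262, 226, 671 and 140.4 CPM. Other barcodes held 20.3 CPM of these 5 genes in WT and 225 CPM in KO, and basophil-like barcodes 52.7 and 651 CPM. WT members were thus above the other barcodes of their library, while KO members were level with theirs or below.

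The summed level of neutrophil granule transcripts was 1155 and 1162 CPM in shallow WT and KO members and 2906 and 5291 CPM in deep ones, with 5883 and 13741 CPM in the other barcodes. Elane, a neutrophil elastase, stood at 74.2, 269, 157 and 967 CPM in shallow WT, deep WT, shallow KO and deep KO members and at 688 and 2576 CPM in the free RNA of WT and KO. Of the 4 member classes deep KO members held the most neutrophil RNA, while deep WT members had the larger share of doublet marks given above. The part of either in the results on deep members was not tested.

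By a rule of size, the 15 genes with the largest fold over other barcodes in both libraries were Mcpt2, Mcpt4, Tpsb2, Cma1, Tpsg1, Tpsab1, Ccl2, Pla2g7, Fcer1a, Ighv1-23, Rprm, Gzmb, Cpa3, Cyp11a1 and Hs6st2. Proteases were 8 of them (Mcpt2, Mcpt4, Tpsb2, Cma1, Tpsg1, Tpsab1, Gzmb and Cpa3). The others include a chemokine (Ccl2), the IgE-binding chain of FceRI (Fcer1a), the enzyme that degrades platelet-activating factor (Pla2g7), the first enzyme of steroid synthesis (Cyp11a1) and a heparan sulfate sulfotransferase (Hs6st2). These genes define the choice of barcodes or follow it, and their folds are no finding.

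**Figure D2:**
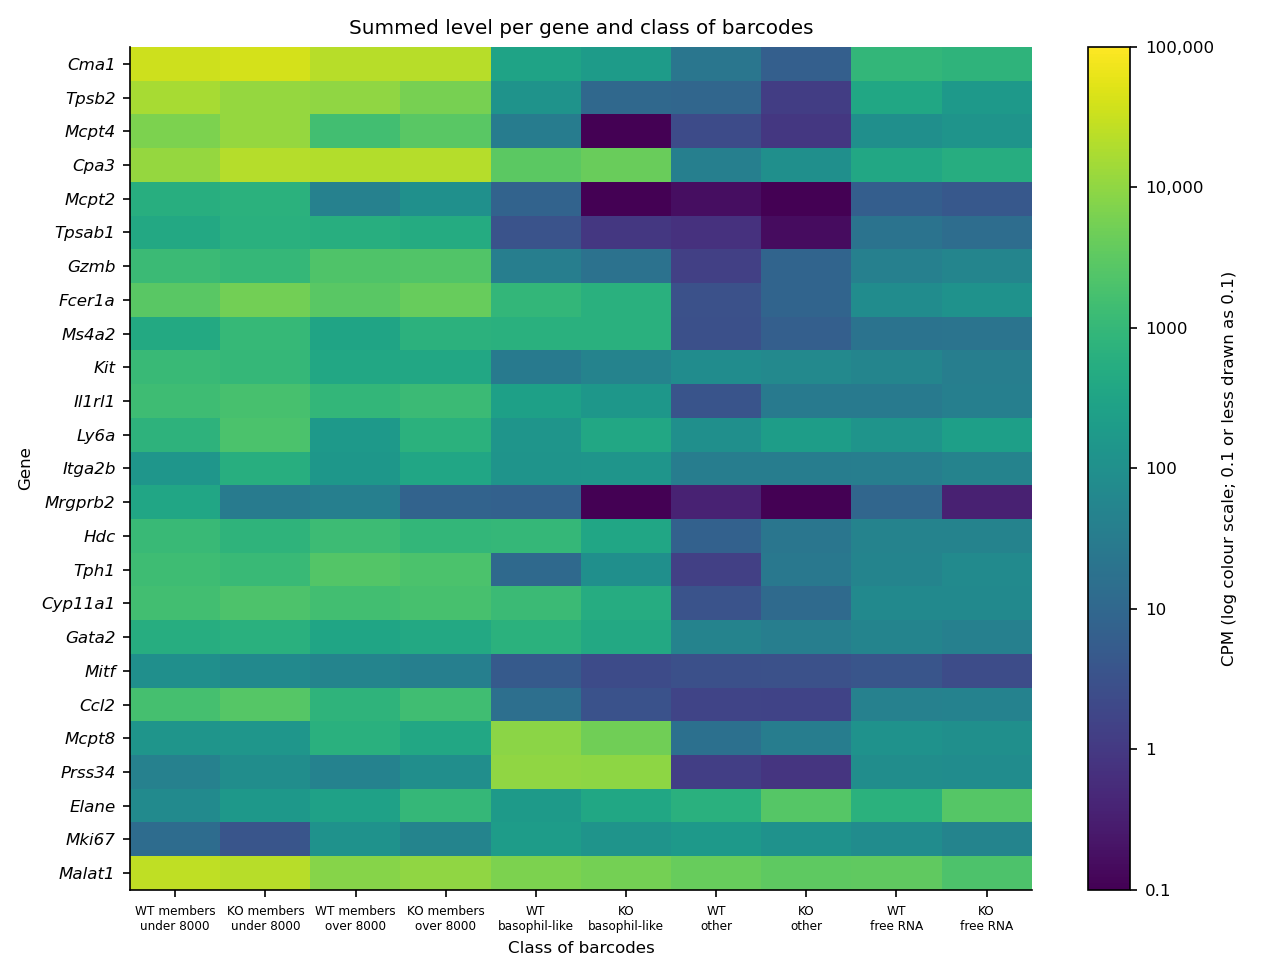
Summed level per gene (CPM, log colour scale) in members under and over 8000 UMIs, basophil-like barcodes, other barcodes and free RNA of each library. Mast proteases, Fcer1a and Ccl2 are bright in the 4 member columns, Mcpt8 and Prss34 in the basophil-like columns, and Elane in the other barcodes and free RNA.

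Among the chymases, Cma1 (ENSMUSG00000022225, minus strand of chromosome 14 from 55941451 to 55944675) was near-universal. Per member it had a lowest level of 2.17, a median of 365 and a highest of 1470.4 UMIs per 10,000 in shallow WT members, and 2.92, 337 and 1586 in shallow KO members. In deep members the values were 5.61, 201 and 1166 in WT and 0, 239 and 1126 in KO. The libraries overlapped almost wholly, with a KO over WT log2 ratio of summed CPM of 0.21 (95% interval 0.20 to 0.23) under and -0.03 (-0.05 to -0.02) over 8000 UMIs.

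Mcpt4 (ENSMUSG00000061068, minus strand of chromosome 14 from 56059629 to 56062313), a connective tissue chymase, split the members. Its median per member was 14.5 UMIs per 10,000 in shallow WT and 26.7 in shallow KO members but 0.575 and 0.904 in deep ones, and each class had members at 0 and members above 300. Summed, it stood at 6383 and 10999 CPM in shallow and 1539.9 and 2843 CPM in deep members of WT and KO. Thinned to 1000 UMIs per barcode, 55.3% of shallow WT members (51.5 to 59.0) and 61.9% of shallow KO members (55.0 to 68.4) held a Mcpt4 UMI, against 32.4% and 35.8% of deep members and 0.297% and 0.0965% of other barcodes. Unthinned, the member shares were 61.6%, 68.4%, 54.7% and 59.1%.

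The mucosal chymases were found in few members. Mcpt2 held a UMI in 73 of 713 shallow WT, 18 of 139 deep WT, 36 of 215 shallow KO and 45 of 193 deep KO members, with 566, 42.3, 685 and 103 CPM. Single members carried much of it, since 1 of them held 392 of the 538 UMIs in shallow KO members. Mcpt1 stood at 10.4 and 0.748 CPM in WT and at 91.6 and 175 CPM in KO members under and over 8000 UMIs. That difference rested on few barcodes as well: of 668 UMIs in deep KO members 504 (75.4%) lay in 1 member, and without it the level was 43.0 CPM.

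The chymase genes lie side by side on chromosome 14. Between Cma1 and Gzmb (56258838 to 56262260) stand Cma2, Mcpt1, Mcpt9, Mcpt2, Mcpt4, the basophil gene Mcpt8 (56082166 to 56085273), Ctsg and further granzyme genes. Gzmb, a granzyme of cytotoxic lymphocytes that mast cells also make, was at 1259 and 1001 CPM in shallow and 2247 and 2309 CPM in deep members of WT and KO, against 1.34 and 8.44 CPM in other barcodes. Ctsg, cathepsin G, was at 513, 1099, 632 and 1910 CPM in shallow WT, deep WT, shallow KO and deep KO members, below its 1343 and 4299 CPM in other barcodes.

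Cpa3 (ENSMUSG00000001865, minus strand of chromosome 3 from 20215620 to 20242181), the mast carboxypeptidase, had not been used by the rule. Its median per member was 98.0 UMIs per 10,000 in shallow WT, 176 in deep WT, 150 in shallow KO and 242 in deep KO members, and the highest members reached 491, 760, 1491 and 1095. Shallow WT members were the lowest class, and the ranges of all 4 classes overlapped. The KO over WT log2 ratio was 0.91 (0.88 to 0.94) under and 0.12 (0.10 to 0.13) over 8000 UMIs.

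Over the 14 proteases on the list, 11 could be compared in each class (50 or more summed UMIs and 50 CPM in either library). Past 2-fold, with a counting interval that left out 0, 2 were higher in KO and 0 lower in each depth class. Under 8000 UMIs these were Ctsd, a lysosomal protease (569 against 1862 CPM, log2 ratio 1.71, 1.59 to 1.83), and Mcpt1, and over 8000 UMIs Mcpt1 and Mcpt2. Of all genes compared, 11.1% were past 2-fold higher and 4.44% lower in KO under 8000 UMIs, and 5.11% and 1.80% over. The list's median log2 ratio was 0.30 and 0.12, beside 0.01 and -0.04 over all genes.

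Tpsb2 (ENSMUSG00000033825, plus strand of chromosome 17 from 25366305 to 25369098) had a median per member of 169 UMIs per 10,000 in shallow WT and 63.4 in deep WT members, but 18.2 and 12.9 in KO. The highest KO members, at 1014 and 695, were above the highest WT members, at 667 and 478. The lower KO median therefore came with more members at or near 0 rather than with a lower ceiling. Thinned to 1000 UMIs, 96.2% of shallow WT (94.5 to 97.5), 84.9% of deep WT (77.8 to 90.4), 129 of 215 shallow KO (53.1% to 66.6%) and 56.5% of deep KO members (49.2 to 63.6) held a Tpsb2 UMI. Other barcodes, thinned in the same way, did so at 1.33% in WT and 0.209% in KO. Unthinned, the member shares were 98.3%, 97.8%, 67.4% and 80.3%, against 19.8% of other barcodes in WT and 2.64% in KO. Summed over members no tryptase was past 2-fold between the libraries: the KO over WT log2 ratio under and over 8000 UMIs was -0.52 and -0.74 for Tpsb2, 0.597 and -0.197 for Tpsab1, and -0.25 and -0.07 for Tpsg1.

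To describe this, members with 2000 or more UMIs were put in classes by Tpsb2, a split made after its values had been seen. In miR-142 WT CML 16 of 469 members (3.41%, 1.96 to 5.48) had under 3 Tpsb2 UMIs per 10,000 and 438 (93.4%) had 10 or more. In miR-142 KO CML 126 of 349 (36.1%, 31.1 to 41.4) were under 3 and 181 (51.9%) at 10 or more, with 42 between. The low share in KO was alike in shallow members (36.5%, 29.0 to 44.6) and deep ones (35.8%, 29.0 to 43.0). Depth did not separate the classes in KO either, with median UMIs of 9313.5 in the low and 9531 in the high class.

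The KO members with low Tpsb2 had low levels of 2 neighbouring tryptases too. Tpsab1 (25343245 to 25345562), whose coding sequence is close to that of Tpsb2 so that reads may be split between both, stood at 34.9 CPM in the low and 943 CPM in the high class (log2 ratio -4.76, -5.16 to -4.38). Tpsg1 (25369273 to 25374442), a tryptase with a membrane anchor, stood at 26.5 and 414 CPM (-3.97, -4.44 to -3.53). Prss34 (25298394 to 25300165), at the other end of the same cluster, was at 3.01 and 175 CPM. These values only describe the members, since the rule that chose them used this gene. It held Prss34 and Mcpt8 together below the sum of Cma1, Tpsb2 and Mcpt4.

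By members, Tpsab1 was seen in 14.3% of the low class (8.69 to 21.6) and 80.7% of the high class (74.1 to 86.1), and Tpsg1 in 6.35% (2.78 to 12.1) and 62.4% (54.9 to 69.5). Mcpt4, on the other chromosome, was seen in 63.5% and 57.5%, Cma1 in 100% and 99.4%, and Cpa3 in 98.4% and 99.4%. In the 16 WT members with low Tpsb2, Tpsab1 stood at 14.1 CPM against 588 CPM, while Tpsg1 was at 151 against 232 CPM. The same 16 members held more neutrophil and monocyte RNA, with Elane at 1135 against 107 CPM, Mpo at 1376 against 126 CPM and Ly6c2 at 302 against 9.86 CPM, and its part in their tryptase levels was not tested.

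Of 2799 genes compared between the low and the high class in KO, 14 were past 2-fold higher (0.500%) and 21 lower (0.750%), with a median log2 ratio of 0.09. Among those higher were genes of neutrophil precursors, of the cell cycle and of other kinds: Hp (237 against 85.5 CPM), S100a8 (126 against 60.4 CPM), Top2a (122 against 57.8 CPM) and Mcpt1 (342 against 50.7 CPM), with Gpx3, Hist1h1b, Prss57, Hist1h2ae, Hist1h2ap, Anxa3, Ccl7, Psph, Cops3 and F13a1. Elane (1234 against 714 CPM) and Mpo (559 against 339 CPM) were higher by under 2-fold, and the part of neutrophil RNA in this comparison was not tested. Among those lower, Hdc, which makes histamine, was at 513 and 1233 CPM (-1.27, -1.38 to -1.16). Ccl6, a chemokine, was at 98.7 and 545 CPM with a UMI in 21 of 126 and 53 of 181 members. Wfdc12 (16.8 and 678 CPM) and Pf4 (3.61 and 187 CPM) were further apart but rested on 17 and 7 members of the high class. The IgE receptor genes Fcer1a (3585 and 4312 CPM) and Ms4a2 (706 and 733 CPM) and Kit (426 and 518 CPM) were within 2-fold, as was Tph1 (1254 and 2370 CPM, -0.92). Mrgprb2, with too few UMIs to be compared, stood at 1.80 and 20.5 CPM. Tspoap1, the gene next to the deletion, had a UMI in 87.3% of the low and 86.2% of the high class, and in 6.25% and 2.28% of the WT classes, so both KO classes carried this transcript alike.

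**Figure D3:**
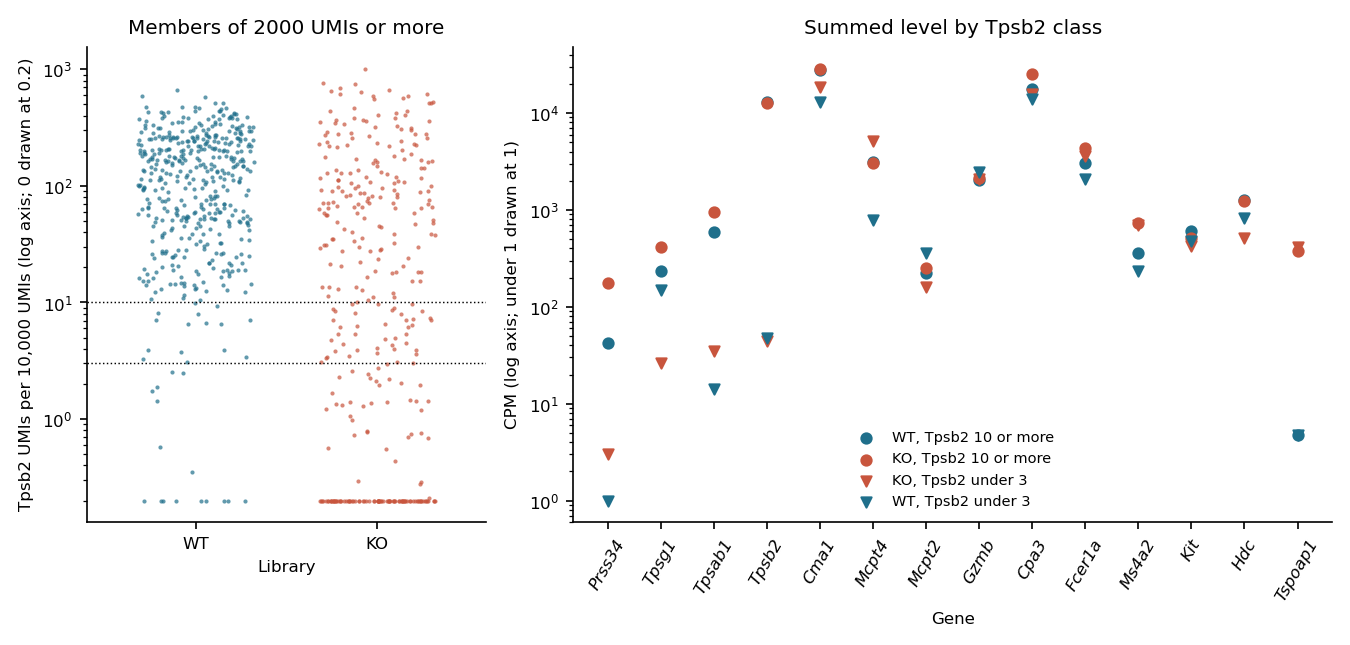
Left, Tpsb2 UMIs per 10,000 (log axis, 0 drawn at 0.2) in each member with 2000 or more UMIs, with dotted lines at 3 and 10; right, summed CPM (log axis, under 1 drawn at 1) per gene in members with Tpsb2 at 10 or more (circles) and under 3 (triangles). In KO 36.1% of members lie under the lower line. The KO triangles fall far below the KO circles for Prss34, Tpsg1, Tpsab1 and Tpsb2 but stay close for Cma1, Cpa3, Fcer1a and Kit. For Tpsg1 the WT triangle lies near its circle. Tpsb2 defines the classes, and the rule that chose members used Cma1, Mcpt4 and Prss34 too.

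Of 17 receptor genes compared under 8000 UMIs, 6 were past 2-fold higher in KO and 1 lower (median log2 ratio 0.79), beside 11.1% and 4.44% of all genes. Of 16 compared over 8000 UMIs, 5 were higher and 0 lower (median 0.52), beside 5.11% and 1.80%. Itga2b, Ly6a and Ms4a2 were higher in both classes.

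Kit (the receptor of stem cell factor, and 1 of the 2 sort markers) was alike in both libraries. It stood at 1137 and 967 CPM in shallow and 394 and 391 CPM in deep members of WT and KO, against 83.1 and 65.4 CPM in other barcodes and 29.3 and 48.0 CPM in basophil-like ones. The KO over WT log2 ratio was -0.23 (-0.36 to -0.11) under and -0.01 (-0.13 to 0.10) over 8000 UMIs. Per member its median was 10.6 and 9.23 UMIs per 10,000 in shallow and 3.74 and 3.501 in deep members, so that depth rather than library ordered it.

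Ly6a, which codes for the other sort marker Sca-1, was higher in KO. Its median was 5.50 UMIs per 10,000 in shallow WT, 16.2 in shallow KO, 1.10 in deep WT and 3.23 in deep KO members, with a lowest value of 0 in each class and highest values of 81.9, 85.7, 21.1 and 102. Summed, it was at 756, 1947, 167 and 690 CPM in the same order (log2 ratio 1.36, 1.26 to 1.47, under and 2.04, 1.899 to 2.19, over 8000 UMIs). Other barcodes also differed, with 99.3 CPM in WT and 220 CPM in KO. Because cells were sorted on Sca-1, its level among them can be set by the gate as well as by the cells, and these cannot be told apart.

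Of the 3 chains of the IgE receptor 1 was past 2-fold. Ms4a2, its signalling beta chain, stood at 443 and 1033 CPM in shallow and 317 and 701 CPM in deep members (log2 ratio 1.22, 1.08 to 1.37, and 1.14, 1.03 to 1.26). Fcer1a, the chain that binds IgE, was at 2969 and 5315 CPM and at 2957 and 3947 CPM (0.84 and 0.42), under 2-fold. Fcer1g, the gamma chain that other Fc receptors share, was at 3501 and 2238 CPM and at 1956 and 1823 CPM, lower in KO. In basophil-like barcodes Ms4a2 was level, at 630 and 634 CPM.

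Mrgprb2 (ENSMUSG00000050425, minus strand of chromosome 7 from 48550965 to 48558086), the receptor through which basic peptides and many drugs degranulate mast cells without IgE, was lower in KO. It had a UMI in 368 of 713 shallow WT members and 14 of 215 shallow KO members, and in 44 of 139 and 15 of 193 deep ones. The levels were 362 and 31.8 CPM (log2 ratio -3.51, -4.15 to -2.93) and 39.7 and 8.10 CPM (-2.29, -2.92 to -1.70). Thinned to 1000 UMIs, 32.1% of shallow WT (28.7 to 35.7), 4.32% of deep WT (1.6003 to 9.16), 2.33% of shallow KO (0.759 to 5.34) and 2.59% of deep KO members held a UMI, against 0.0349% of other WT barcodes and 0 of 6220 in KO, which allows a share of up to 0.0482%. Free RNA held it at 9.71 and 0.347 CPM (WT, KO), and other barcodes at 0.366 and 0.0253 CPM. The family holds near-identical copies and the related Mrgprx2 was low in the same way (59.4, 4.12, 3.82 and 0.784 CPM in shallow WT, deep WT, shallow KO and deep KO members), so the split of reads among copies is uncertain.

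Itga2b, an integrin of megakaryocytes and of early mast and stem cells, was at 141 and 562 CPM in shallow and 150 and 364 CPM in deep members (1.99, 1.77 to 2.22, and 1.28, 1.12 to 1.44). Other megakaryocyte markers did not accompany it in shallow members, where Pf4 was at 11.5 and 8.91 CPM and Gp9 at 8.25 and 5.09 CPM, although Pf4 reached 117 CPM in deep KO members. Receptor chains for interleukin 3, interleukin 5 and GM-CSF were higher in shallow KO members: Csf2rb2 at 101 and 596 CPM (2.56), Csf2rb at 197 and 522 CPM (1.41) and Il3ra at 70.4 and 173 CPM (1.298). Over 8000 UMIs the same 3 genes differed by under 2-fold (0.93, 0.53 and 0.64).

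KO members under 8000 UMIs were deeper than WT ones, so the comparison was repeated in narrower windows chosen after this was seen. From 1000 to 3000 UMIs (526 WT and 100 KO members, median UMIs 1523.5 and 1848) and from 3000 to 8000 UMIs (187 and 115 members, 4823 and 4736) the log2 ratio of Mrgprb2 was -3.32 and -3.05, that of Itga2b 1.80 and 2.09, that of Ly6a 1.09 and 2.10, and that of Ms4a2 1.15 and 1.46. For the proteases it was 0.60 and 1.12 for Mcpt4, 0.58 and 0.96 for Cpa3 and -0.15 and -0.56 for Tpsb2. Each of these genes kept its direction in both windows.

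**Figure D4:**
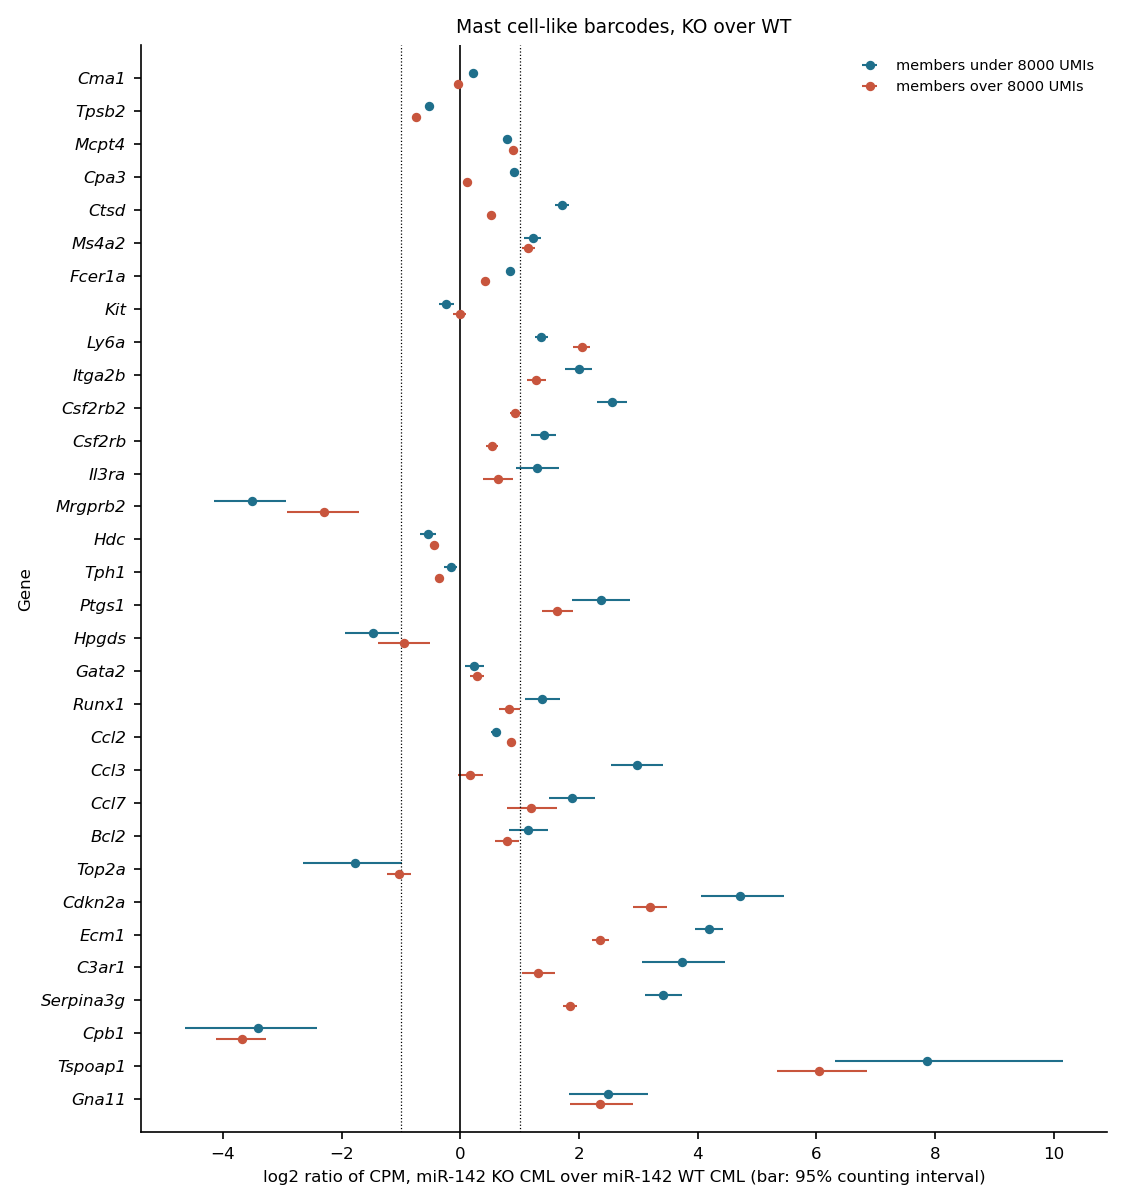
Log2 ratio of summed CPM, miR-142 KO CML over miR-142 WT CML, per gene in members under and over 8000 UMIs, with bars for 95% counting intervals and dotted lines at 2-fold. Cma1, Kit and Gata2 sit near 0, Mrgprb2 and Cpb1 lie far to the left, and Cdkn2a, Ecm1 and Tspoap1 far to the right in both classes.

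Of 13 genes for mediators and the granule matrix compared under 8000 UMIs, 1 was past 2-fold higher in KO and 1 lower (median log2 ratio 0.32), and of 13 over 8000 UMIs 2 were higher and 1 lower (0.22). The counts under 8000 UMIs lie near the shares of all genes (11.1% and 4.44%). Those over 8000 UMIs were above the shares of all genes (5.11% and 1.80%) but rest on few genes. Ptgs1, cyclooxygenase 1 at the head of prostaglandin synthesis, was higher in both, with 29.1 and 150.2 CPM in shallow and 55.4 and 172 CPM in deep members (2.37 and 1.63). Hpgds, which makes prostaglandin D2 and so works downstream of it, was lower, with 173 and 62.4 CPM and 39.7 and 20.7 CPM (-1.47, -1.93 to -1.03, and -0.94, -1.38 to -0.51). Both enzymes stand on 1 path, and their levels differed between the libraries in opposite directions.

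Histamine and serotonin genes were under 2-fold apart. Hdc was at 1141 and 785 CPM in shallow and 1281 and 942 CPM in deep members, and Tph1, the first enzyme of serotonin synthesis, at 1335 and 1192 CPM and at 2512 and 1968 CPM. In basophil-like barcodes Tph1 reached 11.2 and 99.3 CPM (WT, KO). Srgn, the proteoglycan core that packs granules, was at 4804 and 9302 CPM and at 6681 and 12102 CPM. Cyp11a1 was at 1544 and 2066 CPM and at 1517 and 1762 CPM.

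Of 6 signalling genes compared under 8000 UMIs only the adaptor Lat was past 2-fold higher in KO (154.5 and 322 CPM, 1.06), and of 5 over 8000 UMIs 0 were. Of 12 transcription factors under 8000 UMIs 2 were higher, Runx1 (101 and 263 CPM, 1.38) and Bhlhe40 (74.2 and 179 CPM, 1.27), and of 11 over 8000 UMIs 0 were. Both counts under 8000 UMIs lie near the 11.1% of all genes that were higher there. The mast factors Gata2 (547 and 645 CPM, then 345 and 419 CPM) and Mitf (99.5 and 68.7 CPM, then 50.1 and 39.0 CPM) were level in shallow and deep members of WT and KO. Cebpa, which opposes the mast fate in favour of basophils, was at 2.54 to 13.1 CPM in the members and at 162 and 152 CPM in basophil-like barcodes.

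Of 8 cytokine genes compared under 8000 UMIs, 3 were past 2-fold higher in KO and 0 lower, and of 8 over 8000 UMIs 2 were higher and 1 lower, beside 11.1% and 4.44%, then 5.11% and 1.80%, of all genes. Ccl2, a monocyte attractant, was at 1699.8 and 2572 CPM in shallow and 782 and 1415 CPM in deep members, and at 15.6 and 3.33 CPM in basophil-like barcodes. Ccl7, its neighbour in function, was higher in both classes (52.2 and 192 CPM, 1.88, then 23.9 and 54.9 CPM, 1.20). Ccl3 was higher in shallow KO members alone (33.0 and 258 CPM, 2.97), with 119 and 133 CPM in deep ones, and whether that depends on depth was not tested. Il13 counts were few and uneven: 1 member held 20 of the 29 UMIs in shallow KO members.

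Across all genes, 106 of 2460 (4.31%) were past 2-fold higher in KO in both depth classes and 26 (1.06%) lower. By size, the 10 that led among the higher were Tspoap1, Cdkn2a, AA467197, Ecm1, Pira2, C3ar1, Slc27a1, Serpina3g, Il18rap and Cadm3. By size in shallow members, Ighm, Hist1h2ae, Igkc, Mrgprx2, Hist1h2ap, Mrgprb2, Hist1h1b, Cpb1, Adgrl4 and Smpx led among the genes lower in KO. Each had a lower level in deep KO members too. Ighm, Mrgprx2, Mrgprb2 and Smpx were under the minimum for comparison in deep members, so they are not among the 26.

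Ecm1 (ENSMUSG00000028108, minus strand of chromosome 3 from 95734147 to 95739569), a secreted matrix protein, was at 96.8 and 1761 CPM in shallow and 172 and 880.04 CPM in deep members (4.19, 3.96 to 4.42, and 2.36, 2.22 to 2.50). It had a UMI in 103 of 713 and 176 of 215 shallow and in 87 of 139 and 188 of 193 deep members, so the difference ran through most members. Cdkn2a (minus strand of chromosome 4 from 89274471 to 89294653), which codes for the cell cycle inhibitors p16 and p19, was at 10.998 and 288 CPM and at 41.2 and 376 CPM (4.71, 4.05 to 5.45, and 3.19, 2.91 to 3.48). Fewer barcodes carried it, with a UMI in 6 and 56 shallow and 11 and 108 deep members of WT and KO.

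C3ar1, the receptor of complement C3a, was at 12.1 and 160 CPM and at 55.0 and 137 CPM (3.73, 3.07 to 4.45, and 1.31, 1.05 to 1.59). Serpina3g, an inhibitor of cathepsins, was at 59.4 and 635 CPM and at 269 and 967 CPM (3.42 and 1.84). In the windows of 1000 to 3000 and 3000 to 8000 UMIs the log2 ratio was 4.16 and 4.04 for Ecm1, 5.53 and 4.17 for Cdkn2a and 4.35 and 3.27 for C3ar1, so these differences were present in both windows. Bcl2, a survival gene, was at 88.0 and 195 CPM and at 104 and 179 CPM (1.15 and 0.78), and was past 2-fold under 8000 UMIs, the only such gene of the 3 survival genes compared there.

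Cpb1 (minus strand of chromosome 3 from 20248264 to 20275733), a carboxypeptidase gene beside Cpa3, was at 108 and 10.2 CPM in shallow and 184 and 14.4 CPM in deep members (-3.41, -4.64 to -2.40, and -3.68, -4.11 to -3.28). It was thus lower in KO while its neighbour Cpa3 was not. Ighm and Igkc, immunoglobulin genes, stood at 61.6 and 205 CPM in shallow WT members and at 2.54 and 12.7 CPM in KO ones. Free RNA differed in the same way, with 1936 CPM of Ighm in the WT library against 14.97 CPM in the KO library, and 5847 against 89.6 CPM of Igkc, so the part of free RNA in these values was not tested. Histone genes such as Hist1h2ap have near-identical copies, and their counts are uncertain.

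Past 2-fold in WT and KO alike, 79 of 2544 genes (3.11%) were higher and 106 (4.17%) lower in shallow members. Within WT 168 were higher (5.84%) and 263 lower (9.15%), and within KO 150 (5.08%) and 217 (7.35%). The median log2 ratio of all genes was -0.12 in WT and -0.08 in KO, and values are to be read against it. Scaled by a size factor in place of totals, the counts were 213 higher and 204 lower in WT, 174 and 181 in KO, and 98 and 78 in both.

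Of 17 receptor and surface genes compared 4 were past 2-fold higher and 2 lower in shallow WT members, and of 16 in KO 2 were higher and 0 lower. Of all genes compared, 5.84% were higher and 9.15% lower in WT, and 5.08% and 7.35% in KO. Mcpt4 was higher in shallow members by a log2 ratio of 2.05 in WT and 1.95 in KO, Mcpt2 by 3.74 and 2.73, Kit by 1.53 (1.42 to 1.64) and 1.31 (1.18 to 1.43), Ly6a by 2.18 and 1.497, and Hpgds by 2.12 and 1.59. Mrgprb2 was higher by 3.19 in WT and by 1.97 (1.15 to 2.78) in KO, where its level was under the minimum for comparison. Gzmb went the other way (-0.84 and -1.21), as did Csf2rb2 (-2.08 and -0.45). Cpa3 was lower in shallow WT members (-0.83, -0.85 to -0.81) and level in KO (-0.04, -0.06 to -0.01).

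Cell cycle genes were lower in shallow members, with 9 of 10 compared past 2-fold in WT and 7 of 8 in KO. Of all genes 9.15% were lower in WT and 7.35% in KO. Mki67, a marker of cycling cells, was at 13.2 and 112 CPM in shallow and deep WT members and at 3.82 and 51.2 CPM in KO ones (-3.08 and -3.75), against 178 and 113 CPM in other barcodes. Top2a was at 64.9 and 183 CPM and at 19.1 and 89.7 CPM (-1.496 and -2.23). KO members had less Top2a than WT members in both classes (-1.77, -2.65 to -0.99, and -1.03, -1.23 to -0.83).

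Immediate early genes, which respond within minutes to stimulation or to handling, were higher in shallow members. Of 11 compared in WT 9 were past 2-fold higher and 1 lower, and in KO 5 and 1. The shares of all genes were 5.84% higher and 9.15% lower in WT, and 5.08% and 7.35% in KO. Fos was at 1412 and 499.6 CPM in WT and at 959 and 497 CPM in KO, and Junb at 884 and 271 CPM and at 963 and 432 CPM. The exception was Hsp90aa1, a chaperone, at 231 and 704 CPM and at 234 and 652 CPM. Malat1, a nuclear RNA, moved with them, at 27017 and 8328 CPM in WT and 22249 and 10257 CPM in KO (1.70 and 1.12), as did the mitochondrial share given above. The part of cell handling or damage in these levels was not tested.

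Further genes named by size were higher in shallow members in both libraries: Apoe, a lipid carrier (1323 and 173 CPM in WT, 527 and 56.2 CPM in KO, 2.94 and 3.23), with Cited4, Il7r, Gm20186, Gm36738 and Cx3cr1. For Cx3cr1 the KO library held too few UMIs to be compared (0.79, -0.35 to 1.82). Those lower were Tnfrsf9, Ighv1-23, S100a4, Anxa2, Grm6, Hbb-bt, Fabp5, Sapcd1 and Mcpt8 beside Mki67. S100a4, a calcium-binding protein, was at 18.7 and 278 CPM in WT and 144 and 311 CPM in KO (-3.89 and -1.11). Fabp5, a fatty acid carrier, was at 102 and 668 CPM and at 295 and 1191 CPM (-2.71 and -2.01).

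**Figure D5:**
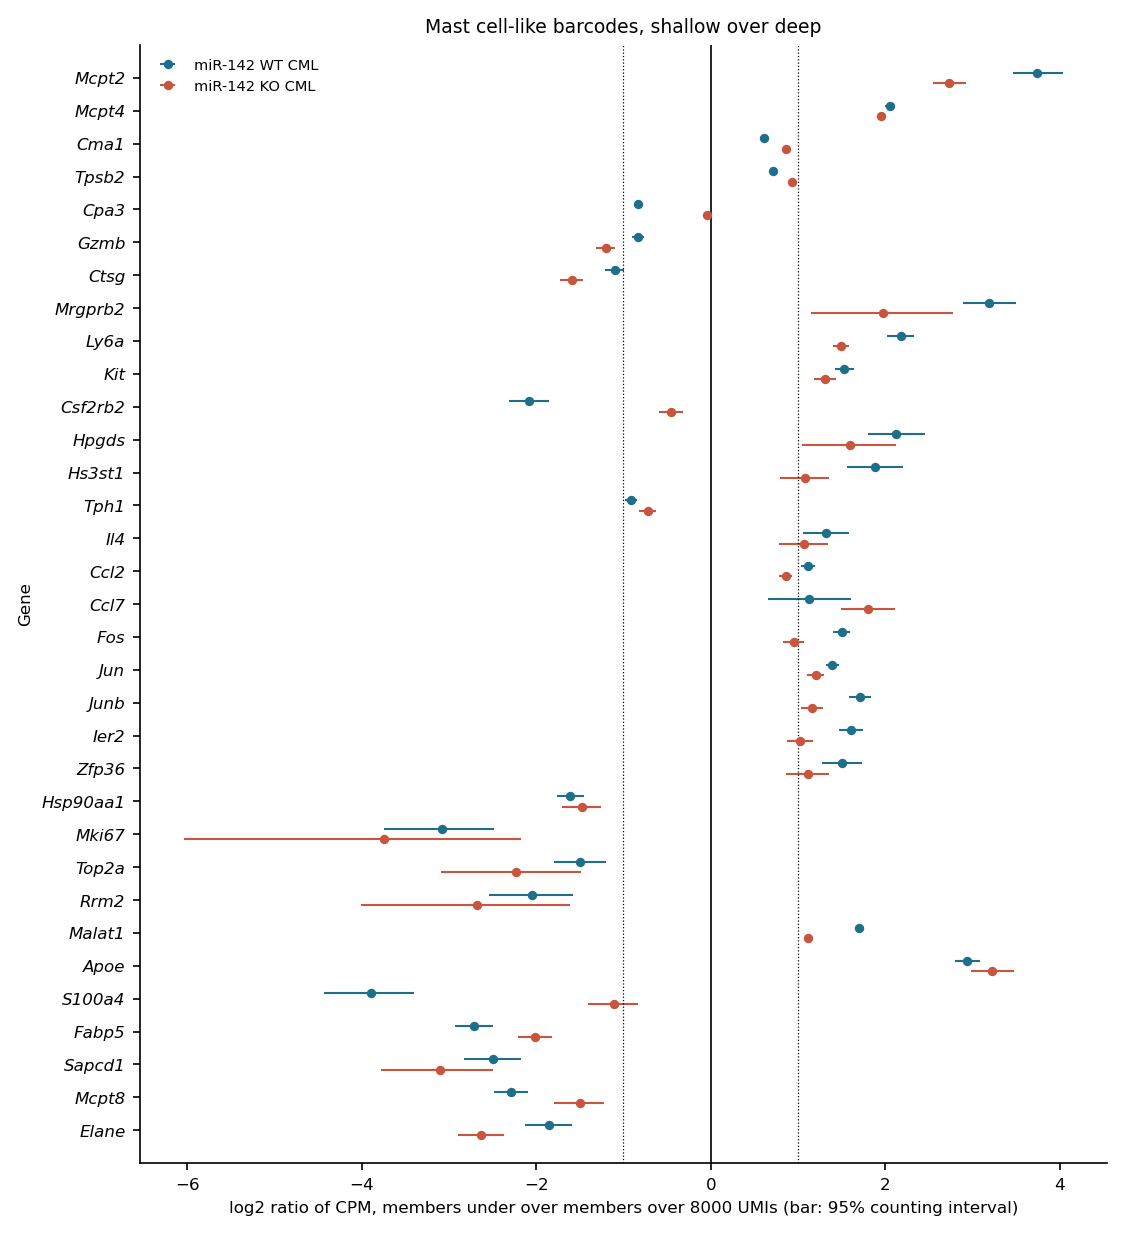
Log2 ratio of summed CPM, members under over members over 8000 UMIs, per gene in each library, with bars for 95% counting intervals and dotted lines at 2-fold. Mcpt2, Mcpt4, Kit, Ly6a, Fos, Jun, Malat1 and Apoe lie to the right of 0 and Mki67, Fabp5, Sapcd1 and Elane to the left of it in both libraries.

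Basophil-like barcodes numbered 79 in WT and 83 in KO, with a median of 20384 and 19678 UMIs. They were chosen by Prss34 and Mcpt8, so these genes describe the choice. Cpa3 was shared, at 3115 and 4184 CPM in basophil-like barcodes, and was higher in the members by a log2 ratio of 2.40 (2.36 to 2.43) in WT and 2.36 (2.33 to 2.40) in KO. Fcer1a was shared as well, at 927 and 660 CPM, and was higher in the members by 1.68 (1.61 to 1.75) and 2.66 (2.58 to 2.74). Kit set the classes further apart, by 4.57 (4.20 to 4.96) and 3.35 (3.06 to 3.65). These ratios pool members of all depths, while 72 WT and 75 KO basophil-like barcodes were over 8000 UMIs. Kit was lower in deep than in shallow members, and the part of depth in its ratios was not tested. Gata2, a factor of both lineages, stood at 667 and 429 CPM in basophil-like barcodes. In WT this was above its level in both member classes, and in KO it lay between the shallow and the deep members.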

How the data were processed

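UMI counts per gene and barcode, deposited by the authors as unfiltered matrices of 1 library of LSK cells per group, were used as they were. The processing notes name Cell Ranger 6.1.2 and mm10, while the file headers name version 4, and 10x 3′ libraries were counted, so levels are not compared between genes. Barcodes were chosen by the rule given above, and the members and gene lists were chosen with earlier results of these data known. UMIs were summed per class and scaled to CPM. Genes with 50 or more summed UMIs and 50 CPM in either class were compared by log2 ratio with an exact conditional binomial interval, and past 2-fold means a log2 ratio of 1 or more in size with an interval that leaves out 0. With 1 library per group there was no test and no p-value. Named genes were the role lists, the 15 that led over other barcodes, and the 10 with the largest ratio in each direction. Each of these 10 was past 2-fold in shallow members, or in WT where depth classes were compared. In the other class or library it went the same way, but was not always compared. Wfdc12, Pf4, Ccl6, Gp9 and the genes higher with low Tpsb2 were named after their values were seen. A gene that this rule of naming picks is not reported here. Shares were compared after thinning each barcode to 1000 UMIs. Scrublet (scanpy 1.11.5) at its automatic threshold marked 1 barcode per library, which is too few to use; the highest scores were marked instead, at 0.8% per 1000 barcodes. Code was checked on simulated counts. Positions are from GRCm38 annotation, and 32158 of 32285 gene IDs matched.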

Additional observations from a re-analysis of the deposited data

Results flagged for a closer look

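For 5 of the genes named by size, the KO over WT direction in the members was opposite to that in basophil-like barcodes; whether the effects themselves differ was not tested, since each group was 1 library. The log2 ratios in members under 8000 UMIs, members over 8000 UMIs and basophil-like barcodes were 4.71, 3.19 and -3.74 for Cdkn2a, 4.19, 2.36 and -2.28 for Ecm1, 3.73, 1.31 and -2.20 for C3ar1, 3.42, 1.84 and -1.85 for Serpina3g, and -1.33, -1.62 and 1.20 for Apoe. Apoe was also lower in the free RNA of KO (374 CPM in WT and 133 CPM in KO, -1.49) and in its other barcodes (200 and 106 CPM, -0.92). The part of free RNA in the Apoe levels of members was not tested. Cdkn2a had a UMI in 18 of 79 WT and 4 of 83 KO basophil-like barcodes, Ecm1 in 52 and 35, C3ar1 in 46 and 19, Serpina3g in 67 and 48, and Apoe in 37 and 74. Over 2176 genes compared in all 3 classes, 76 were past 2-fold alike in both member classes, of which 16 were opposite in basophil-like barcodes and 14 the same way. Of the 16 opposite genes, 14 were higher in KO members and lower in KO basophil-like barcodes, and 2 the reverse. Of all 2909 genes compared in basophil-like barcodes, 2.30% were past 2-fold higher in KO and 6.08% lower.

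Signal was also seen outside the barcodes compared. At 500 or more but under 1000 UMIs 340 WT and 41 KO barcodes met the mast rule, and 45 WT and 4 KO barcodes met it but failed the mitochondrial limit.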

How the results depend on the processing

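The KO minus WT difference in the share of members was -6.72 percentage points, and became -10.3 with a minimum of 500 UMIs, -2.22 with 2000, -4.11 with under 5% mitochondrial UMIs and -10.1 when barcodes were thinned before the rule. The share of WT members under 8000 UMIs (83.7%) became 86.3% at a score of 100, 88.3% and 70.4% at minima of 500 and 2000 UMIs, 79.8% with under 5% mitochondrial UMIs, 73.5% and 86.6% with the split at 5000 and 10,000, 87.0% without barcodes marked by Scrublet and 66.9% when thinned first. That of KO (52.7%) became 44.7% at 2000 UMIs and 40.2% and 59.6% with the split at 5000 and 10,000. KO over WT counts were 322 higher and 129 lower under and 145 and 51 over 8000 UMIs. A minimum of 25 CPM gave 257 lower under and 235 and 107 over; 100 CPM gave 185 and 53 under and 74 and 18 over. Over 8000 UMIs, 101 were lower without Scrublet-marked barcodes and 95 with equal weight per member. The windows, chosen after seeing the data, gave 201 higher at 1000 to 3000 UMIs and 201 lower at 3000 to 8000. At a score of 50 the members over basophil-like log2 ratio was 2.78 in WT and 2.45 in KO for Cpa3, and 1.99 and 2.56 for Fcer1a. Shares with a Tpsb2 UMI were 97.6% (shallow WT) and 92.1% (deep WT) thinned to 2000 UMIs, and 98.3%, 97.8%, 67.4% (shallow KO) and 80.3% (deep KO) not thinned. For named genes, 1057 of 1184 values stayed alike, 106 fell under 2-fold or the count minimum, 21 moved and 0 reversed. No paired analysis was possible because each group was 1 library. Without replicates, the spread between mice cannot be told apart from the difference between groups.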
